A study of Mus musculus with 27 samples.

Results

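Mouse embryos injected with siRNA against Kat6b (siKat6b) were set against embryos injected with control siRNA (siControl), 3 libraries each, 6 of the 27 libraries of the series, chosen by their group labels. Each library was made from polyadenylated RNA of a pool of 15 to 20 wild-type embryos, injected into the cytoplasm as zygotes at E0.5 (embryonic age in days), grown in KSOM medium and collected at E2.75, as morulae. Embryos of both groups were injected, grown and collected alike. The siKat6a libraries, 3 pools injected with siRNA against the paralog Kat6a, were used for comparison, and siP300 and siComb, the other siRNA groups, entered the shared fit. Neither the make-up of siComb nor the part of a transcript that each siRNA targets is given by the labels. The labels call the pools replicates but do not say whether they were collected on separate days, so p-values measure the spread between these pools, which may be technical. In a pool, fewer cells expressing a gene and less RNA per cell cannot be told apart.

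KAT6B (MORF) is a histone acetyltransferase of the MYST family and the close relative of KAT6A (MOZ). Both work in a complex with a scaffold of the BRPF family, ING5 and MEAF6, which places acetyl groups on the tail of histone H3 at active promoters. In the mouse, early 2-cell embryos switch on a burst of genes together with the endogenous retrovirus MERVL, whose long terminal repeats act as promoters for many of them, and this burst is shut off before the morula forms.

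Values are raw counts per gene, given for single libraries as CPM, the count scaled to the library's total over gene rows. The siKat6b and siControl libraries held 9506529 to 11164330 counts each. Of 55367 gene rows, 19180 passed the filter on low counts, and with 2 rows for MERVL 19182 rows were tested. Of the 10 morula markers, 9 were detected in both groups. Sox2, which lies inside the long noncoding gene Sox2ot on the same strand, was at 0 counts in all 27 libraries. The morula markers summed to 11409, 9998 and 9525 CPM in siKat6b, against 10992, 10360 and 14421 CPM in siControl. Markers of other cells were low. The 10 cumulus and granulosa markers summed to 13.1, 10.6 and 10.8 CPM in siKat6b, against 5.93, 7.55 and 5.55 CPM in siControl, and 1 of them, Ptx3, was at 0 in all 6 libraries. The 9 oviduct and stroma markers summed to 5.05, 3.15 and 3.10 CPM in siKat6b, against 2.08, 2.61 and 2.51 CPM in siControl, and 5 of them (Foxj1, Krt5, Col1a2, Col3a1 and Lum) were at 0 throughout. The 8 blood and immune markers summed to 5.89, 9.26 and 32.1 CPM in siKat6b, against 6.13, 6.68 and 5.20 CPM in siControl, with Hbb-bs at 0 throughout. The high value of siKat6b 3 was mostly Hba-a1, an alpha globin, which had 1.47, 2.76 and 26.7 CPM in siKat6b, against 0.791, 1.16 and 0.537 CPM in siControl. Y-linked genes, which follow the share of male embryos in a pool, summed to 29.1, 137 and 101 CPM in siKat6b, against 102, 126 and 173 CPM in siControl, so siKat6b 1 was the lowest. The part of these markers in the results was not tested.

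Before any gene is described, the siKat6b libraries have to be told apart. siKat6b 1 and siKat6b 3 differed from siControl over many genes, while siKat6b 2 stayed near siControl in most of them, as the values of each library below show. Among the other siRNA groups, siP300 2 and siComb 2 also stood apart from their own replicates, with 915 and 990.2 CPM of the MERVL row MERVL-int, against 20.4 to 158 CPM in the other libraries of siP300, siComb, siKat6a and siControl. Counts of changed genes are given with and without these libraries.

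Kat6b (chr14:21481434-21672478, forward strand, GENCODE vM21 on GRCm38, which is mm10), the gene the siRNA was aimed at, had 66.1, 79.6 and 82.5 CPM in siKat6b, 94.8, 133 and 114 CPM in siKat6a and 97.5, 108 and 107 CPM in siControl. All 3 siKat6b values lay below all siControl values, at 63.4%, 76.5% and 79.2% of the siControl mean. The siP300 libraries had 120, 56.4 and 104 CPM of Kat6b, and the siComb libraries 60.9, 34.6 and 88.3 CPM. Kat6b in siP300 2, siComb 1 and siComb 2 was thus below every siKat6b library. The means were 76.1 ± 8.77 CPM in siKat6b and 104 ± 5.82 CPM in siControl (SD, n = 3 each). The log2 difference was -0.56 ± 0.27 (SE), with a 95% interval of -1.14 to 0.02, and it did not pass the test (adjusted p = 0.495 by edgeR's quasi-likelihood test with Benjamini-Hochberg adjustment, used for every adjusted p here unless another tool is named). It was lower in 3 of 3 libraries and missed the threshold in all 17 settings. Groups that did not overlap were found in 17.4% of all rows tested, 11.8% with siKat6b higher and 5.68% with siKat6b lower. siKat6b 2, the library nearest to siControl in most genes described below, had a Kat6b level between those of siKat6b 1 and 3.

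Its paralog Kat6a was not lower, with 16.4, 17 and 18.6 CPM in siKat6b, against 17.6, 15.3 and 15.3 CPM in siControl and a log2 difference of 0.01 ± 0.20. In siKat6a, Kat6a had 12.4, 10.6 and 12.9 CPM, below all 6 libraries of both other groups. Kat7, another MYST enzyme, which also works with BRPF scaffolds, had 66.1, 85.6 and 94.6 CPM in siKat6b, against 88, 82.6 and 89.2 CPM in siControl. Among the partners of KAT6B, the scaffold Brpf3 had 7.99, 6.11 and 8.9 CPM in siKat6b, against 8.9, 11.8 and 11.1 CPM in siControl, and its log2 difference of -0.57 ± 0.32 did not pass (adjusted p = 0.569, edgeR). Brpf1, the main scaffold, had a log2 difference of -0.13 ± 0.24, and Ing5, the subunit that reads methylated histone H3, one of -0.15 ± 0.17. Of the 35 tested members of a list of MYST enzymes and their subunits, 0 rose and 0 fell, and the median log2 difference was 0.05, against 0.02 over all rows. At an unadjusted p under 0.05, 2 members were higher (Kansl2 and Actl6a), which is 5.71% of the list against 6.50% of all rows, and 1 was lower (Morf4l1), which is 2.86% against 3.95%, so the list did not exceed the background. The unrelated acetyltransferases Ep300 and Crebbp had log2 differences of 0.09 ± 0.29 and -0.11 ± 0.16.

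Across the genome, siKat6b against siControl gave 4 changed genes, 0.0209% of the 19182 rows tested. Ndufa10 and Mgst3 fell, and Gm364 and Rgs2 rose, 0.0104% of rows in each direction. With the same threshold of an adjusted p under 0.05, DESeq2 called 237 rows (1.24%), 167 of them higher. Before adjustment, 2004 rows (10.4%) had a p under 0.05, 1247 higher (6.50%) and 757 lower (3.95%). The number of calls rested on single libraries. Without siKat6b 2 it was 163 (139 higher), and with siP300 2 and siComb 2 left out of the fit it was 129 (120 higher), a setting chosen after seeing the data. Without any other single library of siKat6b or siControl it was 1 or 2.

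Ndufa10 (chr1:92439010-92473860, reverse strand) encodes an accessory subunit of complex I of the respiratory chain, the enzyme that oxidises NADH. It had 65.2, 96.2 and 74.8 CPM in siKat6b, 192, 215 and 204 CPM in siKat6a and 199.5, 207 and 199.6 CPM in siControl. All 3 siKat6b libraries, siKat6b 2 included, stood well below all others, at 32.3%, 47.6% and 37.0% of the siControl mean. The means were 78.7 ± 15.9 CPM in siKat6b and 202 ± 4.15 CPM in siControl (SD, n = 3 each), a log2 change of -1.46 ± 0.19 (adjusted p = 0.00576, edgeR, lower in 3 of 3 libraries). The microRNA gene Mir6900 lies within Ndufa10 on the same strand, so reads there cannot be told apart. The call held in 15 of 17 settings. It was lost without siKat6b 1 and without siKat6b 3, where the log2 differences were -1.36 and -1.39. The siComb libraries had 134.7, 143 and 204 CPM of Ndufa10 and the siP300 libraries 197, 218 and 196 CPM; these groups share the siControl libraries with siKat6b.

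Mgst3 (chr1:167371966-167393841, reverse strand), a microsomal glutathione transferase that detoxifies lipid peroxides, had 19.8, 17.1 and 21.9 CPM in siKat6b, 34.4, 39.2 and 27.8 CPM in siKat6a and 43.7, 55.6 and 52.6 CPM in siControl. Its siKat6b values were the lowest of all 9 libraries, and the siKat6a values lay between those of the other groups. The means were 19.6 ± 2.4 CPM in siKat6b and 50.6 ± 6.17 CPM in siControl (SD, n = 3 each), a log2 change of -1.47 ± 0.24 (adjusted p = 0.0485, edgeR). This adjusted p was just under the threshold, and 7 of 17 settings called the gene.

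Gm364 (chrX:57409154-57488767, forward strand), a protein-coding gene model with no assigned name, had 8.84, 13.8 and 10.8 CPM in siKat6b, 7.34, 7.26 and 6.15 CPM in siKat6a and 3.56, 2.52 and 4.3 CPM in siControl. The groups did not overlap, and siKat6b 2 held the highest value of the 9 libraries. The log2 change was 1.58 ± 0.26 (adjusted p = 0.0485, edgeR), also just under the threshold, and 7 of 17 settings called it. Rgs2 (chr1:143999338-144004161, reverse strand), a regulator that shuts off G protein signals, had 0.842, 2.17 and 2.9 CPM in siKat6b, 0.387, 0.66 and 0.559 CPM in siKat6a and 0, 0 and 0 CPM in siControl. The siControl counts were 0 in every library, against 8, 22 and 28 counts in siKat6b. Set against a floor of 3 counts over the siControl group, Rgs2 was at least 20.8-fold higher in siKat6b (adjusted p = 0.00576, edgeR), and 15 of the 15 settings that tested it called it. Its level stayed low in siKat6b, under 3 CPM. Rgs2 and Gm364 are named because the calls are so few, after their values were seen. Both reached more in siP300, with 80.1, 97.7 and 77.1 CPM of Gm364 and 14.6, 11.8 and 16.3 CPM of Rgs2. They did so in siComb too, with 135, 183 and 147 CPM of Gm364 and 6.88, 6.75 and 8.83 CPM of Rgs2.

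**Figure D1:**
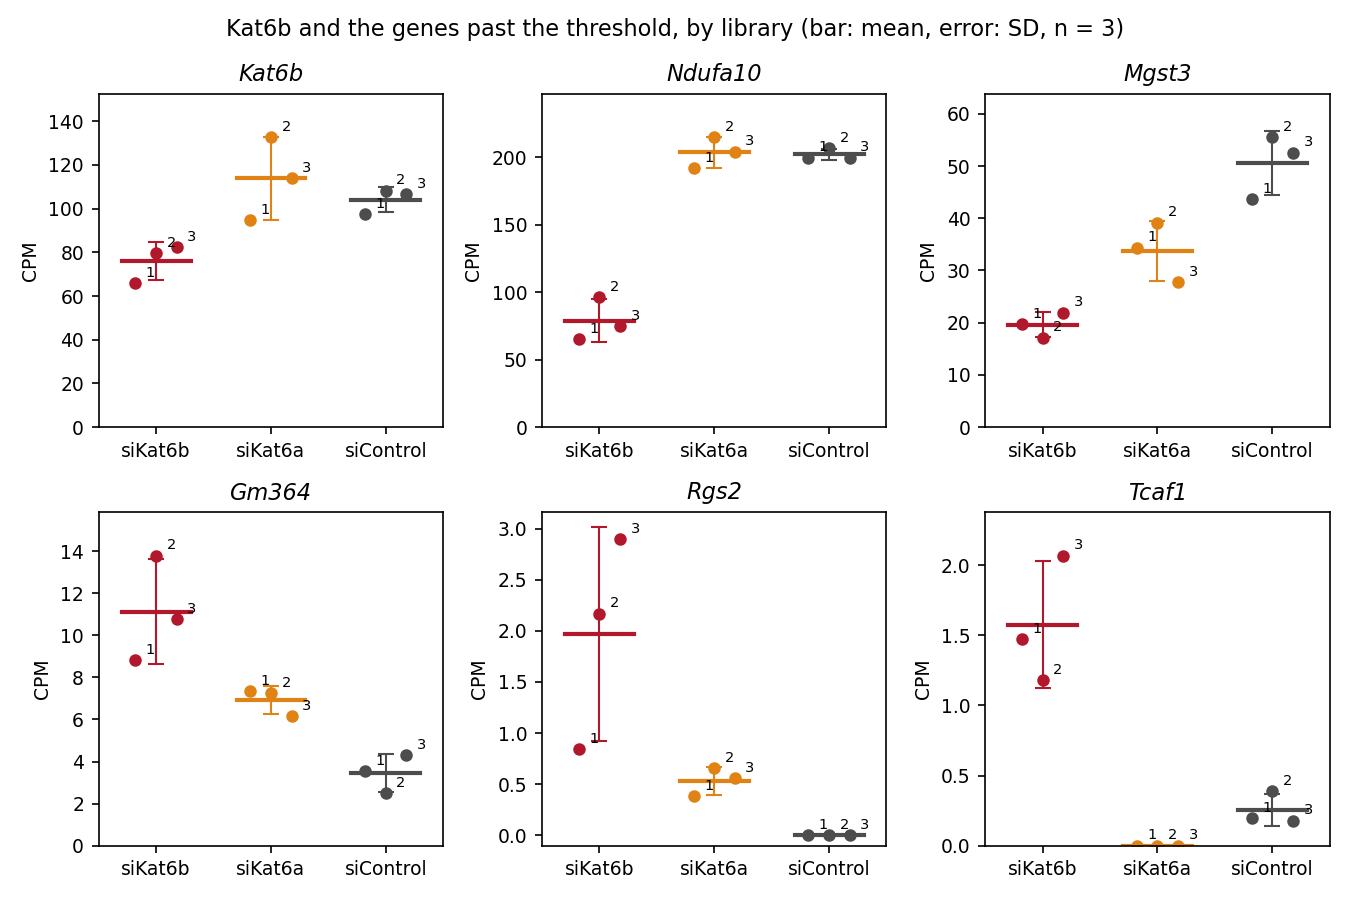
CPM (y axes, linear) of Kat6b and the 5 genes called in siKat6b against siControl or siKat6a, for siKat6b (red), siKat6a (orange) and siControl (grey); numbered points are libraries, bars are means and error bars are SD (n = 3). Ndufa10 sits between 65.2 and 96.2 CPM in siKat6b, below 192 CPM and more in the other libraries, whereas Kat6b itself sits between 66.1 and 82.5 CPM in siKat6b, against 97.5 to 108 CPM in siControl.

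The promoters of the genes that fell are shown because they can be set beside those of genes described further on. Those are low in siControl and high in siKat6b 1, siKat6b 3 or both. Both are rich in CpG, a pair of bases that is dense at the promoters of most broadly expressed genes. The RefSeq promoter of Ndufa10 (GRCm38.p6, chr1:92473709-92474008, reverse strand) and that of Mgst3 (chr1:167393792-167394091, reverse strand) are written 5′ to 3′ with each CpG in capitals, 250 bases before to 50 after the start.
Ndufa10 promoter: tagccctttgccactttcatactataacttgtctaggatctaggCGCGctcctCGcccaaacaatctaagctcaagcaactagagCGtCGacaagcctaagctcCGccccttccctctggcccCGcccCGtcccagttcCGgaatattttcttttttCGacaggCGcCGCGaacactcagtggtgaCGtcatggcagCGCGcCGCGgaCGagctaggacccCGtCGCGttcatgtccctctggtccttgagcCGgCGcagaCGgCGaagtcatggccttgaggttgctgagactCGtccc
Mgst3 promoter: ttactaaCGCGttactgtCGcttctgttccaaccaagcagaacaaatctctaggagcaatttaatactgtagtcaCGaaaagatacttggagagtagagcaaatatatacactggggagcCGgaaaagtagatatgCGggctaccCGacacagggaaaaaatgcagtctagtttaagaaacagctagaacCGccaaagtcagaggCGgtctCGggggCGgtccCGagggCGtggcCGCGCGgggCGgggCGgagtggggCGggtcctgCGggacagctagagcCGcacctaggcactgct
They hold 27 and 21 CpG, against a median of 20 over the 13101 tested genes with a promoter in the table.

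A direct comparison with the paralog siRNA gave 2 changed genes between siKat6b and siKat6a, 0.0104% of 19182 rows, with 1 in each direction (0.00521%). Ndufa10 was lower in siKat6b than in siKat6a, with a log2 change of -1.44 ± 0.19 (adjusted p = 0.007, edgeR). Tcaf1, a partner of the cold-sensing channel TRPM8, was higher in siKat6b, with 1.47, 1.18 and 2.07 CPM in siKat6b, 0, 0 and 0 CPM in siKat6a and 0.198, 0.387 and 0.179 CPM in siControl. Tcaf1 was higher still in siP300, at 8.92, 10.1 and 9.68 CPM, and in siComb, at 10.3, 11.8 and 10.9 CPM. Its 46 counts in siKat6b against 0 in siKat6a made it at least 15.8-fold higher, with a floor of 3 counts over the siKat6a group (adjusted p = 0.00449, edgeR). Kat6b did not pass between these groups, with a log2 difference of -0.65 ± 0.27 (adjusted p = 0.575, edgeR). Without siKat6b 2 the number of calls between siKat6b and siKat6a was 77, of which 76 were higher, and without siP300 2 and siComb 2 it was 51.

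The libraries of siKat6b differed in how many genes left the siControl level. On the scale of log2(CPM + 1), 1279, 379 and 1564 rows of siKat6b 1, 2 and 3 were over 2-fold above the siControl mean. In siKat6a the numbers were 120, 185 and 208, and each siControl library set against the other 2 gave 141, 192 and 153. Fewer rows were over 2-fold below the siControl mean, with 364, 163 and 215 in siKat6b, 161, 167 and 93 in siKat6a and 171, 135 and 213 in siControl. siKat6b 1 and 3 thus stood apart mainly on the higher side. siKat6b 2 had fewer rows on that side than they did but more than any library of siKat6a or siControl. Rows low in siControl could pass the filter on low counts only through libraries in which they are high, siKat6b 1 and 3 among them. These counts of rows are thus a description.

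Of the rows high in siKat6b 1, 698 were also high in siKat6b 3, which is 54.6% of the list of siKat6b 1 and 44.6% of that of siKat6b 3. siKat6b 2 shared 100 rows with siKat6b 1 and 131 with siKat6b 3, or 26.4% and 34.6% of its own list. Rows high in all 3 libraries numbered 68, and rows low in all 3 numbered 5. All these differences share the siControl mean, and the limit of the filter holds for these overlaps too. Every library was then thinned to 7557591 counts. After that, 15229, 14862 and 15724 genes had at least 10 counts in siKat6b, against 14445, 14568 and 14486 in siControl. In siKat6a the numbers were 14352, 14701 and 14841, with siKat6a 2 and 3 above every siControl library. Every siKat6b library exceeded every siControl library, with means of 15272 ± 433 in siKat6b and 14500 ± 62.6 in siControl (SD, n = 3 each; two-sided exact permutation test, p = 0.1, the smallest that 3 against 3 can give). The mitochondrially encoded share of counts was 1.78%, 2.26% and 2.42% in siKat6b, against 1.94%, 2.41% and 2.45% in siControl (two-sided exact permutation test, p = 0.6, n = 3 each).

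**Figure D2:**
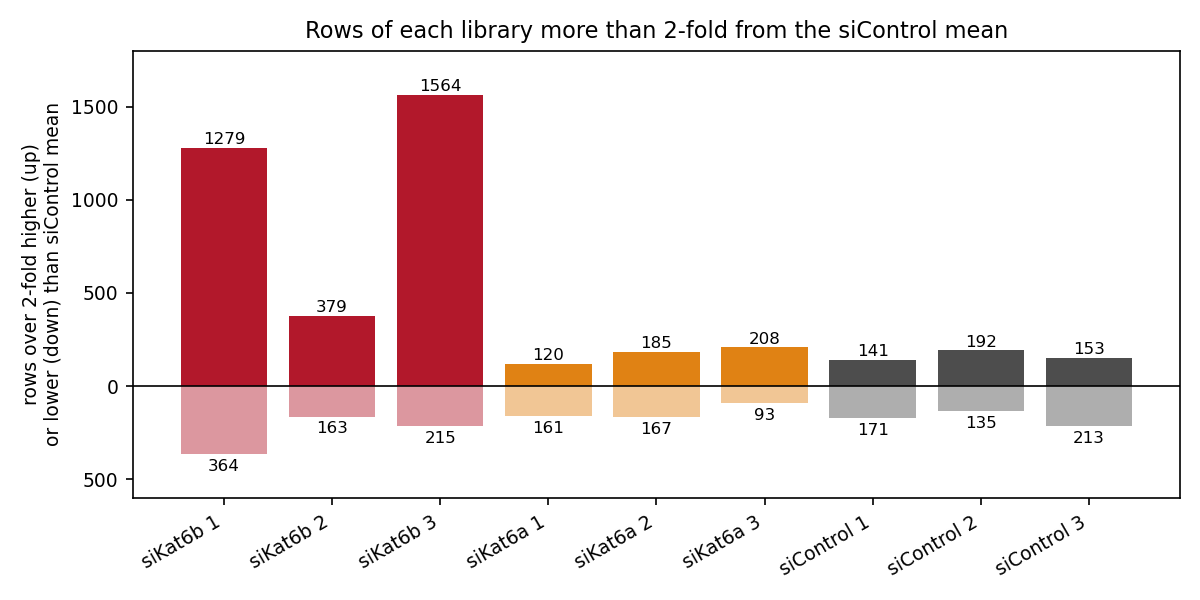
Number of tested rows (y axis) in each library that lie over 2-fold above (upward bars) or below (downward, paler bars) the siControl mean on log2(CPM + 1), with each siControl library set against the other 2. siKat6b 1 and 3 reach 1279 and 1564 rows above, siKat6b 2 reaches 379, and the 6 other libraries reach 120 to 208. Some rows passed the filter on low counts through the libraries in which they are high.

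MERVL was split between the libraries. The row MERVL-int, the internal part of the retrovirus, had 899, 35 and 946 CPM in siKat6b, 20.4, 28.3 and 44.3 CPM in siKat6a and 23.4, 32.8 and 21.2 CPM in siControl. siKat6b 1 and 3 were far above every library of siKat6a and siControl, and siKat6b 2 lay inside the range of those libraries. The log2 difference of 4.49 ± 1.16 had an adjusted p of 0.182 (edgeR) and was called in 4 of 16 settings, among them the fits without siKat6b 2 (adjusted p = 0.0302, edgeR) and without siP300 2 and siComb 2 (adjusted p = 0.0156, edgeR). Over those 16 settings the adjusted p ran from 3.02e-80, with no filter on low counts, to 0.603. siP300 2 and siComb 2 were told apart by MERVL-int itself, and siKat6b 2 is the siKat6b library low in it. The calls of MERVL-int without these libraries are thus a description. The second row, MERVL_2A-int, was less high in siKat6b 1 and 3, with 46.9, 22.5 and 54.6 CPM in siKat6b, 20.4, 26.9 and 26.3 CPM in siKat6a and 16.6, 20.9 and 21.4 CPM in siControl. How the reads of these repeats were counted is not given in the sources used here.

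The 8 genes with the widest range over the siKat6b libraries, at a mean of at least 10 CPM and leaving out gene models with no assigned name, were split in a like way. Their range was what chose them, so these values are a description. Zfp352 (chr4:90218820-90225702, forward strand), a zinc finger gene of the 2-cell stage, had 39.3, 0 and 67.3 CPM in siKat6b, against 1.58, 0.581 and 0.179 CPM in siControl. Tcstv3, another gene of the 2-cell stage, had 24.4, 0.197 and 33.7 CPM in siKat6b, against 0, 0.581 and 0.537 CPM in siControl. Sel1l2, a relative of the degradation adaptor SEL1L, had 44.6, 1.97 and 83.6 CPM in siKat6b, against 1.38, 1.35 and 0.896 CPM in siControl. In each of these genes siKat6b 2 lay at or near the siControl values while siKat6b 1 and 3 lay above every one of them.

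The other 5 of the 8 belong to unrelated families. Vmn2r94, a vomeronasal pheromone receptor, had 9.05, 0 and 47 CPM in siKat6b, against 0, 0 and 0 CPM in siControl, and against the floor of 3 counts over the siControl group it was at least 194-fold higher over the siKat6b group, all of it from siKat6b 1 and 3. Robo1, the receptor of the axon guidance cue Slit, had 25.5, 1.77 and 67.9 CPM in siKat6b, against 0.593, 1.35 and 1.43 CPM in siControl. Prex2, an exchange factor for the GTPase Rac, had 22.1, 1.68 and 72.6 CPM in siKat6b, against 1.68, 1.35 and 1.61 CPM in siControl. Slc9a9, a sodium and proton exchanger of endosomes, had 22.1, 0 and 25.2 CPM in siKat6b, against 0.198, 0.774 and 0.537 CPM in siControl. Mdga2, a cell surface protein of synapses, was the least even of them, with 3.16, 0.986 and 62.9 CPM in siKat6b, against 0.593, 0.387 and 0.717 CPM in siControl, and its siKat6b 1 value was far nearer to siControl than to siKat6b 3. The adjusted p-values of these 8 genes ran from 0.18 to 0.281 (edgeR), so 0 of the 8 passed.

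**Figure D3:**
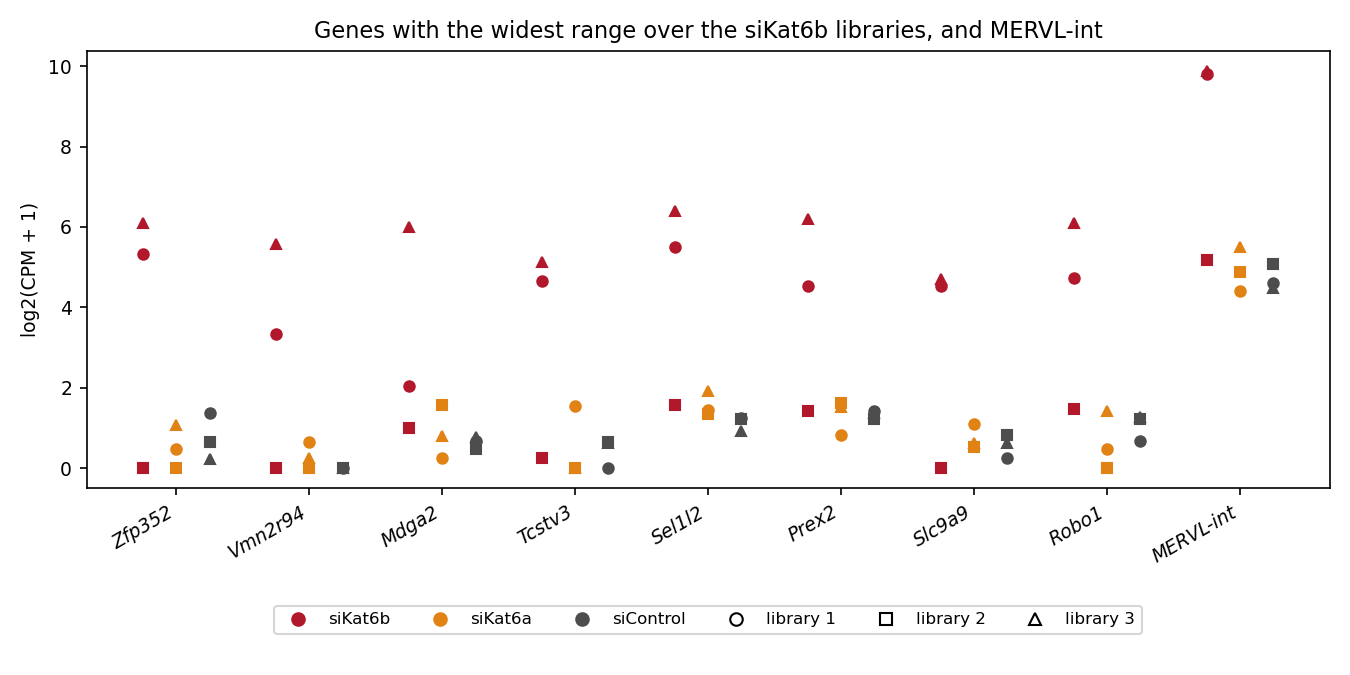
Log2(CPM + 1) (y axis) of the 8 genes with the widest range over the siKat6b libraries (gene models with no assigned name left out), and of MERVL-int, in siKat6b (red), siKat6a (orange) and siControl (grey); marker shapes give the library number. The red circles and triangles (siKat6b 1 and 3) stand above the rest in every gene, with 899 and 946 CPM of MERVL-int, while the red squares (siKat6b 2) lie at or near the levels of siKat6a and siControl.

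The list of genes known from the 2-cell stage had 52 members in the table, of which 43 were tested. Over the 52, expression summed to 757, 282 and 1211 CPM in siKat6b, 268, 304 and 283 CPM in siKat6a and 221, 274 and 227 CPM in siControl. The number of the 52 over 2-fold above the siControl mean was 31, 5 and 36 in siKat6b 1, 2 and 3 and 2, 0 and 1 in siKat6a, and each siControl library against the other 2 gave 0, 3 and 0. Of the 43 tested, 0 rose and 0 fell. Each had a positive log2 difference, 27 had an unadjusted p under 0.05 (against 6.50% of all rows), and the median was 4.52, against 0.02 over all rows. Many of these 43 passed the filter on low counts only through the libraries in which they are high, so these last counts are a description. DESeq2 called 5 of them higher, against 167 of all 19182 rows. edgeR called 3 members without siKat6b 2, against 139 of 20151 rows, and 8 without siP300 2 and siComb 2, against 120 of 19742. The limit of the filter holds for these calls too.

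The members nearest to the threshold were Gm2016, with 23.9, 2.76 and 63.9 CPM in siKat6b, against 0.791, 0.484 and 0.717 CPM in siControl, Gm20767, with 9.26, 0.394 and 56.8 CPM in siKat6b, against 0.593, 0.194 and 0 CPM in siControl, and Spz1, a leucine zipper factor, with 12, 1.77 and 12 CPM in siKat6b, against 0, 0.387 and 0 CPM in siControl. In Gm2016 and Spz1 even siKat6b 2 was above every siControl library, at a fraction of the other siKat6b values. The members did not all behave alike. Zscan4c and Zscan4d, the telomere-linked zinc finger genes that often serve as markers of the 2-cell state, stayed low. Zscan4c had 0.316, 0.394 and 1.03 CPM in siKat6b, against 0.395, 0.194 and 0.537 CPM in siControl. Zscan4d had 0.631, 0.788 and 3.1 CPM in siKat6b, against 0.989, 0.581 and 0.806 CPM in siControl, and its siKat6b 1 and 2 values lay inside the siControl range. These were chosen after their values were seen. Tcstv3, the Usp17l genes, the Zscan4 genes and several of the unnamed models belong to families of near-identical copies, and how shared reads were split between copies is not known, so the level of a single copy is uncertain.

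A further set was near silent in siControl but not in siKat6b 1 and 3. Embryos were collected at a single age, so genes switched on and genes not shut off cannot be told apart. Of 35682 genes at or under 0.5 CPM in every siControl library, 63, 0 and 115 reached at least 5 CPM in siKat6b 1, 2 and 3, and 0, 0 and 0 did in siKat6a. In siControl, each library set against genes at or under 0.5 CPM in the other 2, the numbers were 0, 1 and 0. Of the 63 genes of siKat6b 1, 48 (76.2%) were among the 115 of siKat6b 3 (41.7%). The 48 had median levels of 9.52, 0.197 and 13.8 CPM in siKat6b 1, 2 and 3, and the highest value of any of them in siKat6b 2 was 3.15 CPM. They held 20 protein-coding genes and 11 long intergenic RNAs, and 4 were on the list of the 2-cell stage. Il20ra, a receptor for interleukins of the IL-20 family, had 22.7, 0.591 and 24.6 CPM in siKat6b, against 0.198, 0.194 and 0 CPM in siControl. Gabrr3, a subunit of GABA receptors, had 11.2, 0 and 12.2 CPM in siKat6b, against 0.198, 0.194 and 0 CPM in siControl. These genes were chosen for being high in siKat6b 1 and 3, so no test goes with them.

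Many of these genes had promoters poor in CpG. The 23 genes of the 48 with an entry had a median of 2 CpG in 300 bases, against 20 over the 13101 tested genes with one, and the 22 tested genes of the 2-cell list with one also had a median of 2. In contrast, 62 genes of the nuclear-encoded respiratory chain, described further on, had a median of 19.5. The 48 were chosen for near silence in siControl, and the tested genes set beside them were not. CpG of the other near-silent genes were not counted, so whether few CpG are particular to the 48 was not tested. Long genes that were high in siKat6b 1 and 3 were mixed: of the 3 among the 8 genes with the widest range that span over 500 kb, Slc9a9 had 6, Robo1 15 and Mdga2 22 CpG, and the 174 tested genes over 500 kb with an entry had a median of 18.5. The promoters of Zfp352, a short gene of the 2-cell stage, and of Slc9a9 and Mdga2, the long genes with the fewest and the most CpG of those 3, are written with each CpG in capitals, on GRCm38.p6: Zfp352 at chr4:90218570-90218869, forward strand, Slc9a9 at chr9:94669642-94669941, forward strand, and Mdga2 at chr12:67222500-67222799, reverse strand.
Zfp352 promoter: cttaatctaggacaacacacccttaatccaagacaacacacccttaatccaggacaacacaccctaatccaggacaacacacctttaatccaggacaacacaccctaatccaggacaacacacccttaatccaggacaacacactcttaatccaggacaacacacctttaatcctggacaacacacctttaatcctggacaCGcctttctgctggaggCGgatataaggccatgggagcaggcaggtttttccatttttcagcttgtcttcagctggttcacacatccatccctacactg
Slc9a9 promoter: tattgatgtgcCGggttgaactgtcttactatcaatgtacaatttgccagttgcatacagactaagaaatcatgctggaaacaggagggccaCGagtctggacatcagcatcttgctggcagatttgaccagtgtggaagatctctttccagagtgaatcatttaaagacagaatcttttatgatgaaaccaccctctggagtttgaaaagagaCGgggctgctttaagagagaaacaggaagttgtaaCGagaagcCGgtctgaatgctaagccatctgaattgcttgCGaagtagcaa
Mdga2 promoter: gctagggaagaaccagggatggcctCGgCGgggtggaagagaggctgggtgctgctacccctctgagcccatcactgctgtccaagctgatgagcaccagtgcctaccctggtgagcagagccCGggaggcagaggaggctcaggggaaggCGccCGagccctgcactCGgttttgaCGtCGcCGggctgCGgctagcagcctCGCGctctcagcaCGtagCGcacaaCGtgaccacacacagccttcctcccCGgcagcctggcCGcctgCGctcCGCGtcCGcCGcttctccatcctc
They hold 2, 6 and 22 CpG, against 27 in Ndufa10 and 21 in Mgst3, so a promoter rich in CpG was found both in a gene that fell and in one high in siKat6b 3.

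Most respiratory chain genes encoded in the nucleus had negative differences from siControl, of which 1 passed. Of 73 tested, 1 fell (Ndufa10) and 0 rose, 64 had a negative log2 difference, and the median was -0.39, against 0.02 over all rows. An unadjusted p under 0.05 on the lower side was seen in 44 of the 73 (60.3%, against 3.95% of all rows). DESeq2 called 5 of the 73 lower, against 70 of all 19182 rows. The number at that unadjusted p rested on single libraries. It was 12 without siControl 3, 21 without siKat6b 1 and 19 without siKat6b 3, with medians of -0.30, -0.36 and -0.34. The median difference from the siControl mean on log2(CPM + 1) was -0.37, -0.15 and -0.34 in siKat6b and -0.09, -0.07 and -0.23 in siKat6a, and each siControl library against the other 2 gave -0.10, -0.11 and 0.24. siControl 3 stood high here, 5 of the 6 libraries of siKat6a and siControl were also below 0, siKat6a 3 was lower than siKat6b 2, and siKat6b 2 was nearer to siControl 1 and 2 than the other siKat6b libraries were. Summed over the list, expression was 20346, 23408 and 20724 CPM in siKat6b, against 24765, 24779 and 28767 CPM in siControl.

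Behind Ndufa10 came other subunits of complex I. Ndufa5 had 244, 307 and 247 CPM in siKat6b, against 349.6, 382 and 470.2 CPM in siControl, a log2 difference of -0.69 ± 0.17 (adjusted p = 0.181, edgeR). Ndufb5 had 159.7, 193 and 145 CPM in siKat6b, against 232, 243 and 285 CPM in siControl, a log2 difference of -0.71 ± 0.17 (adjusted p = 0.181, edgeR). In both genes all siKat6b values lay below all siControl values, as in 5.68% of all rows. Over the respiratory chain list, 33 genes did so, and 1 did so on the higher side (11.8% of all rows). Both differences were smaller in size than the change of Ndufa10, and no other member passed. Mitochondrially encoded genes had a median difference of -0.22, -0.05 and 0.11 in siKat6b 1, 2 and 3 and -0.10, 0.11 and -0.09 in siKat6a. In siControl it was -0.23, 0.14 and 0.13, so the siKat6b values lay inside the siControl range.

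No gene of a cytosolic ribosomal protein passed. Of 77 tested, 0 rose and 0 fell, 71 had a negative log2 difference, and the median was -0.24. An unadjusted p under 0.05 on the lower side was seen in 11 (14.3%, against 3.95% of all rows), but in 3 without siControl 2, 1 without siControl 3, 2 without siKat6b 1, 1 without siKat6b 3 and 29 without siKat6b 2. By library the median difference was -0.17, 0.02 and -0.28 in siKat6b, so siKat6b 2 did not share it. Rpl26 had 1286, 1229 and 1305 CPM in siKat6b, against 1694, 1739.7 and 2158 CPM in siControl, a log2 difference of -0.65 ± 0.17 (adjusted p = 0.182, edgeR). Actb, cytoplasmic beta actin and the most abundant member of the SWI/SNF list, had 1364, 1422 and 1206 CPM in siKat6b, against 2067, 2341 and 2126 CPM in siControl, 62.6%, 65.3% and 55.4% of the siControl mean, but did not pass (log2 difference -0.81 ± 0.17, adjusted p = 0.18, edgeR). DESeq2 and the fit without siP300 2 and siComb 2 called 1 gene of the 28 of the SWI/SNF list lower, against 70 and 9 of all rows. Gapdh, the glycolytic enzyme, had 151, 169.5 and 222 CPM in siKat6b, against 283, 268 and 247 CPM in siControl (log2 difference -0.66 ± 0.20, adjusted p = 0.232, edgeR). Its groups did not overlap, as in 5.68% of all rows on the lower side.

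**Figure D4:**
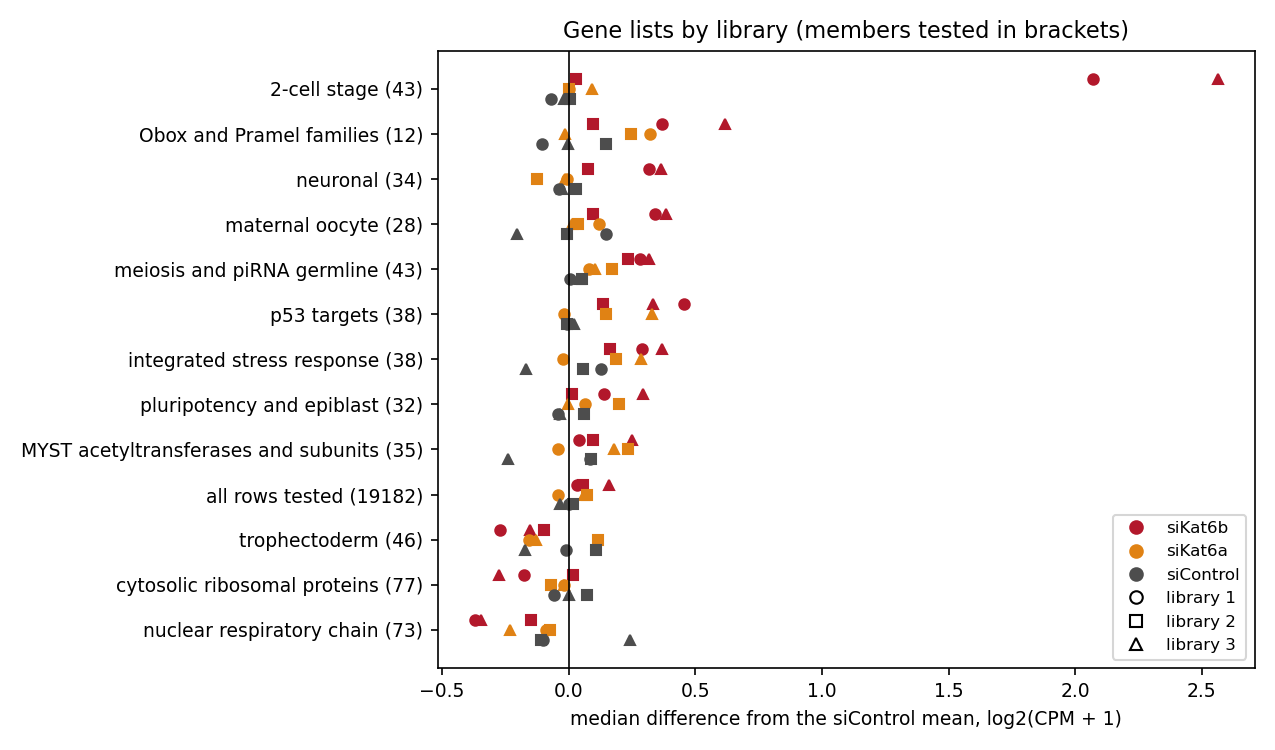
Median difference from the siControl mean on log2(CPM + 1) (x axis) of the tested members of 12 gene lists and of all rows, by library; siKat6b red, siKat6a orange, siControl grey (each against the other 2), shapes give the library number. For the 2-cell list siKat6b 1 and 3 lie at 2.07 and 2.56 and siKat6b 2 at 0.03, while for the respiratory chain siKat6b lies at -0.37, -0.15 and -0.34, siKat6a at -0.09, -0.07 and -0.23 and siControl at -0.10, -0.11 and 0.24.

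Lineage genes were tested because the morula is where the outer cells begin to become trophectoderm, the precursor of the placenta. Of 46 trophectoderm genes, 0 rose and 0 fell, the median log2 difference was -0.29, and at an unadjusted p under 0.05 10 were lower (21.7%, against 3.95% of all rows) and 1 was higher. By library the median difference was -0.27, -0.10 and -0.15 in siKat6b, -0.16, 0.12 and -0.13 in siKat6a and -0.01, 0.11 and -0.17 in siControl, so siKat6b 2 and 3 lay inside the siControl range. Fabp3, a fatty acid binding protein, had 566, 493 and 322 CPM in siKat6b, against 779, 888 and 911 CPM in siControl, or 65.8%, 57.3% and 37.5% of the siControl mean (log2 difference -0.99 ± 0.21, adjusted p = 0.18, edgeR). Tspan8, a tetraspanin of the cell surface, had 25.5, 44.9 and 23.8 CPM in siKat6b, against 65.4, 67.4 and 64.5 CPM in siControl, and Lgals3, a galectin, had 18.9, 29.4 and 15.9 CPM in siKat6b, against 32.6, 39.9 and 38 CPM in siControl. All 3 genes had groups that did not overlap, as did 5.68% of all rows on the lower side. Over the trophectoderm list, 14 genes did so on the lower side and 2 on the higher (11.8% of all rows). Of the 46 genes, 1 was called lower by DESeq2 and by limma-voom, against 70 and 6 of all 19182 rows.

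Gsto1, a glutathione transferase and the most abundant gene of the list, had 857, 896 and 605 CPM in siKat6b, 2199.5, 2498 and 1502 CPM in siKat6a and 1334, 1496 and 2034 CPM in siControl. It was lower in siKat6b than in every library of both other groups, with a log2 difference of -1.14 ± 0.40 from siControl (adjusted p = 0.308, edgeR). Eomes, a transcription factor that trophectoderm needs, had 6.31, 13.6 and 11.6 CPM in siKat6b, against 18.4, 19.9 and 22.6 CPM in siControl (adjusted p = 0.319, edgeR). Hand1, a factor of later trophoblast, was highest in siKat6b 1 and also above siControl in siKat6b 3, with 65.8, 3.35 and 17.9 CPM in siKat6b, against 9.89, 7.16 and 1.43 CPM in siControl. Eomes and Hand1 were picked after their values were seen.

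Of the 32 pluripotency genes tested, 0 rose and 0 fell and the median log2 difference was -0.002. A fit of just the groups compared called 3 genes of this list higher, against 49 of 15789 rows. Klf17, a factor of the early embryo, had 44.6, 10.2 and 72.1 CPM in siKat6b, against 3.76, 8.13 and 4.66 CPM in siControl, with siKat6b 1 and 3 far above and siKat6b 2 just above the siControl range. Tdgf1, a coreceptor of Nodal, was high in all 3 siKat6b libraries, with 71.3, 63.3 and 50.7 CPM in siKat6b, against 23.1, 23.4 and 29.9 CPM in siControl (log2 difference 1.18 ± 0.45, adjusted p = 0.346, edgeR). Dppa3, a maternal factor that protects DNA methylation and the most abundant gene of this list, had 9442, 8539 and 7969 CPM in siKat6b, against 9166, 8737 and 13102 CPM in siControl, and its groups overlapped. Of 43 genes of compaction and polarity 0 passed, with a median of -0.15. Among 24 genes of the primitive endoderm, 0 passed, with a median of 0.07; Gata4, a factor of that lineage, had 14.5, 8.08 and 10.6 CPM in siKat6b, against 3.46, 7.55 and 4.66 CPM in siControl.

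No gene passed in the lists of genes of other tissues. Of 34 neuronal genes tested, 6 were higher (17.6%, against 6.50% of all rows) and 0 lower at an unadjusted p under 0.05, and the median was 0.50. By library the median difference was 0.32, 0.08 and 0.36 in siKat6b, so siKat6b 2 was the nearest to siControl. Bex1, an adaptor of neurotrophin signals, had 17.5, 14.4 and 14.3 CPM in siKat6b, against 4.75, 5.71 and 3.4 CPM in siControl. Its groups did not overlap, as in 11.8% of all rows on the higher side, and siKat6b 2 was at the level of siKat6b 3. Of 43 genes of meiosis and the piRNA pathway, 9 were higher (20.9%) and 1 lower at that p, with a median of 0.12. Tex11, a protein of meiotic chromosome pairing, had 9.15, 6.01 and 15.8 CPM in siKat6b, against 1.78, 3.48 and 3.94 CPM in siControl, and Taf7l, a testis relative of a general transcription factor, had 3.16, 2.76 and 5.59 CPM in siKat6b, against 1.19, 0.774 and 2.87 CPM in siControl. Of 28 maternal oocyte genes 3 were higher (10.7%), among them Omt2a, with 8.2, 3.55 and 6 CPM in siKat6b, against 2.87, 1.35 and 1.61 CPM in siControl. Of 12 genes of the Obox and Pramel families 2 were higher at that p (16.7%, against 6.50% of all rows), with a median of 0.97. By library the median difference was 0.37, 0.10 and 0.62 in siKat6b and 0.32, 0.25 and -0.02 in siKat6a, so siKat6a 1 and 2 lay above siKat6b 2. In siControl it was -0.10, 0.15 and -0.003. Pramel6, the most abundant gene of that list, had a log2 difference of -0.27 ± 0.19. The Hox and Meis list had 20 tested members, with 0 past an unadjusted p of 0.05 and a median of 0.17.

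Stress genes were examined as well. Of 38 p53 targets, 0 passed, and the median was 0.27. At an unadjusted p under 0.05, 5 were higher (13.2%, against 6.50% of all rows) and 1 was lower (2.63%, against 3.95%). DESeq2 called 2 of the 38 higher, against 167 of all 19182 rows. Eda2r, a death receptor, had 47.8, 49.3 and 66.4 CPM in siKat6b, against 28.5, 26.5 and 28.1 CPM in siControl, and Mdm2, the ligase that degrades p53, had 131, 94.2 and 176 CPM in siKat6b, against 74.7, 79 and 71.9 CPM in siControl. Ei24, a protein of autophagy, had 105, 43.4 and 96.7 CPM in siKat6b, against 37.1, 44.7 and 41 CPM in siControl, with siKat6b 2 inside the siControl range. The log2 differences were 0.87 ± 0.21, 0.72 ± 0.19 and 0.89 ± 0.28. Of 38 genes of the integrated stress response, 0 passed, 8 were higher (21.1%) and 1 was lower (2.63%) at that p, with a median of 0.23. Ppp1r15a, the phosphatase subunit that ends this response, had 35.6, 19.3 and 57.3 CPM in siKat6b, against 13.8, 13.4 and 13.4 CPM in siControl. Chac1, which degrades glutathione, had 0.631, 0.197 and 6.21 CPM in siKat6b, against 0, 0 and 0.179 CPM in siControl, so it was high in siKat6b 3.

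The response to double-stranded RNA was listed because the embryos received siRNA. Of 33 genes tested in it, 0 passed and 4 were higher at an unadjusted p under 0.05 (12.1%, against 6.50% of all rows), with a median of 0.14. Ddx58, the sensor RIG-I, had 13.1, 5.72 and 7.04 CPM in siKat6b, against 4.94, 3.87 and 4.21 CPM in siControl, and Ifitm1, an interferon-induced membrane protein, had 2.1, 1.18 and 5.17 CPM in siKat6b, against 0.0989, 0.581 and 0.179 CPM in siControl. Samhd1, which destroys nucleotides that viruses need, had 16.8, 17.5 and 26.3 CPM in siKat6b, against 11.9, 13.9 and 9.85 CPM in siControl. In all 3 genes, those of the list with the smallest p, every siKat6b library was above every siControl library, as in 11.8% of all rows. Over that list, 7 genes did so, and 0 did so on the lower side (5.68% of all rows). Of 28 heat shock genes 0 passed, with a median of 0.13.

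Among chromatin genes, 0 of 32 histone deacetylases and corepressors passed, with a median of -0.10. Hdac9, a class II deacetylase, followed siKat6b 1 and 3, with 26.1, 1.77 and 12.4 CPM in siKat6b, against 1.78, 1.94 and 2.69 CPM in siControl. Of 33 genes that silence retroelements, 0 passed, 3 were higher at an unadjusted p under 0.05 (9.09%, against 6.50% of all rows) and the median was 0.15; none of the list was lower at that p. Rif1, which works in silencing and replication timing, had 237, 245 and 234 CPM in siKat6b, against 162, 188 and 164 CPM in siControl, and Morc3, a silencing ATPase, had 84, 84.2 and 90.4 CPM in siKat6b, against 59.1, 65.6 and 65 CPM in siControl. Both were higher in every siKat6b library than in any siControl library, as were 11.8% of all rows. Over the list of silencing genes, 9 genes did so, and 0 did so on the lower side (5.68% of all rows). Of 46 genes of DNA methylation and Polycomb 0 passed, and the median was -0.03. Of 22 genes of microRNA processing and 23 histone genes 0 passed in either list. Of 20 other acetyltransferases and coactivators 0 passed, with a median of -0.11.

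Of 38 imprinted genes tested, 0 passed in edgeR, and DESeq2 called 1 higher and 1 lower, against 167 and 70 of all 19182 rows. Cdkn1c, an inhibitor of the cell cycle expressed from the maternal copy, had 7.78, 6.9 and 9.11 CPM in siKat6b, against 1.78, 3.87 and 2.51 CPM in siControl (log2 difference 1.43 ± 0.31, adjusted p = 0.18, edgeR). Sfmbt2, a Polycomb protein expressed from the paternal copy in extraembryonic tissue, had 16.4, 27.3 and 34.4 CPM in siKat6b, against 45.3, 47 and 46.7 CPM in siControl (log2 difference -0.95 ± 0.24, adjusted p = 0.181, edgeR). Mest, a hydrolase expressed from the paternal copy, had 10.8, 9.66 and 10.9 CPM in siKat6b, against 22.1, 16.6 and 17 CPM in siControl. These 3 genes, those of the list with the smallest p, had groups that did not overlap, with siKat6b 2 on the same side as siKat6b 1 and 3. Of all rows, 11.8% did so on the higher side and 5.68% on the lower. Over the imprinted list, 2 genes did so on the higher side and 6 on the lower. Of 59 cell cycle genes 5 were higher (8.47%, against 6.50% of all rows) and 1 lower (1.69%, against 3.95%) at an unadjusted p under 0.05, near the background; the lower was E2f8, a repressor of E2F targets, with 3.16, 3.74 and 3.93 CPM in siKat6b, against 7.91, 6.58 and 6.81 CPM in siControl. Of 32 glycolysis genes 5 were higher (15.6%) and 2 lower (6.25%) at that p, with Pdk3, a kinase that turns off pyruvate dehydrogenase, at 15.7, 22.9 and 29.8 CPM in siKat6b, against 13.6, 9.1 and 11.3 CPM in siControl. Of 25 genes of cholesterol synthesis 0 were past that p.

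The longest genes stood out among those high in siKat6b. Of 222 tested genes that span over 500 kb, 20.7%, 5.86% and 25.7% were over 2-fold above the siControl mean in siKat6b 1, 2 and 3. Over all rows the shares were 6.67%, 1.98% and 8.15%. They were 7.22%, 2.71% and 10.6% for the 2176 genes that span 100 to 500 kb, nearer to all rows than to the genes over 500 kb. For the 6959 genes that span 20 to 100 kb they were 4.89%, 1.55% and 7.10%. For the 3532 genes of up to 5 kb they were 9.15%, 2.49% and 9.23%. The shortest genes thus also lay above those of 20 to 100 kb. In the 6 libraries of siKat6a and siControl, the share for genes over 500 kb ran from 0.450% to 2.25%. The median differences of genes over 500 kb were 0.35, 0.26 and 0.42 on log2(CPM + 1) in siKat6b, against -0.11, 0.02 and 0.09 in siControl, so siKat6b 2 shared the shift of the longest genes in its median. Mdga2, Robo1 and Slc9a9 are among these genes. The span is the distance between the first and last base in the annotation, and no test was run on these shares. Genes low in siControl could pass the filter on low counts only through libraries in which they are high, so these shares are a description.

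**Figure D5:**
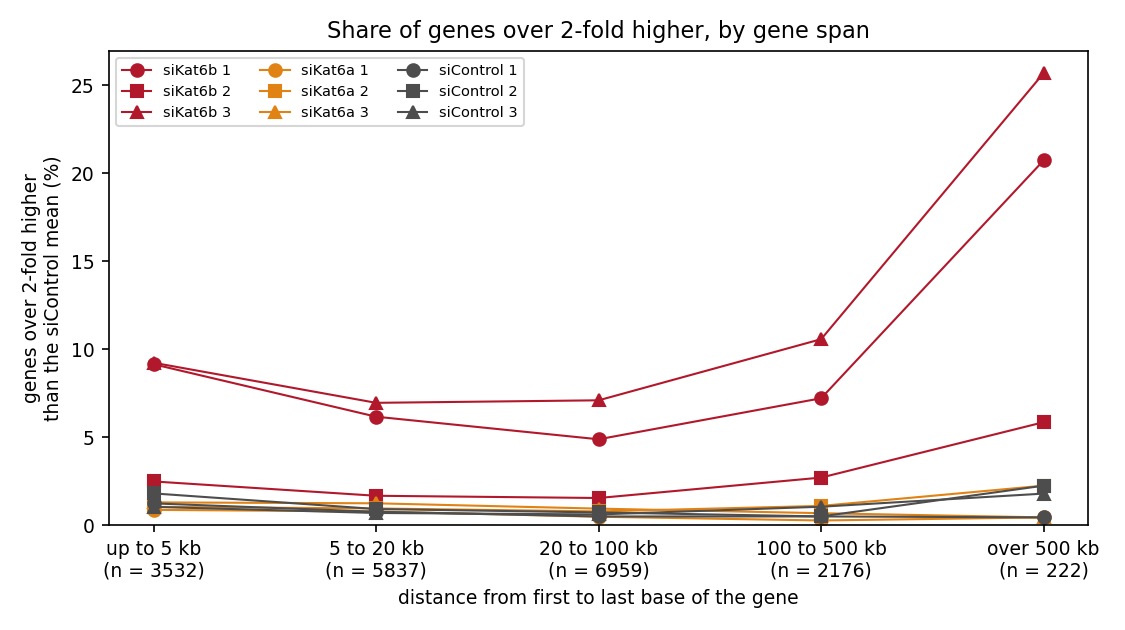
Percent of tested genes over 2-fold above the siControl mean on log2(CPM + 1) (y axis), in 5 bins of the distance from the first to the last base of the gene (x axis), for each library of siKat6b (red), siKat6a (orange) and siControl (grey, each against the other 2); shapes give the library number. Shares of siKat6b 1 and 3 reach 20.7% and 25.7% in genes over 500 kb and siKat6b 2 reaches 5.86%, while the grey and orange lines stay at or under 2.25% there.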

How the data were processed

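Polyadenylated RNA of pooled mouse morulae was measured in 27 libraries, of which 6 are described here; the 15 of the siRNA groups, taken from the sample titles, entered the fit. The deposited files hold whole-number counts for every gene, not normalized by the authors. The submitters' processing notes name STAR 2.7.11a, featureCounts, Subread 2.0.6, MultiQC and Scanpy 1.8.2, and 2 builds, mm10 and GRCh38, with no role stated. Strand setting, annotation release, and how read pairs and MERVL were counted are points not given in the sources used here. Even values made up 84.0% to 85.6% of nonzero counts per library, so floors, which cover counting error only, may be too low. Sample files and the series table held equal counts in 27 of 27 libraries.

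edgeR 4.0.16 (R 4.3.3; quasi-likelihood test, TMM, filterByExpr with a minimum count of 10) tested all rows in 1 fit, with Benjamini-Hochberg adjustment and a threshold of 0.05. Differences of single libraries use a pseudocount of 1 CPM. With library size alone as the scaling, the median log2 difference of all rows was 0.13 in place of 0.02, and changes are relative to this shift. Alternatives were DESeq2 1.42.0, limma 3.58.1 (voom), other scalings and filters, the replicate number as a block, a fit without the other siRNA groups, leaving out libraries and halved counts. No pair of replicates agreed within sampling noise (chi-square per degree of freedom 8.35 to 25.5). Positions come from GENCODE vM21 (53365 of 55367 symbols matched), and promoters from RefSeq (GRCm38.p6). Tables and figures were made in Python 3.11.15 with pandas 2.3.3, numpy 2.4.6, matplotlib 3.10.9 and, for permutation tests, SciPy 1.17.1.

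The members and the 33 gene lists were chosen with earlier results of these data known. The naming rule took Kat6b, its paralog, partners and MERVL, then called genes with at least 10 CPM, then up to 3 genes of a list by adjusted p or its most abundant gene, and the 8 genes with the widest range over siKat6b. Part of these genes is left unmentioned.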

Additional observations from a re-analysis of the deposited data

How the results depend on the processing

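Counts of changed genes moved with the fit. Against siControl, 4 rows in the main setting compare with 2 with DESeq2 size factors, 3 with library size alone, 237 with DESeq2, 757 with no filter on low counts, 2 with a filter at 5 CPM, 10 with limma-voom, 60 in a fit of just the groups compared, 129 without siP300 2 and siComb 2 and 2 with halved counts. Leaving out 1 library gave 1 to 163. Against siKat6a, 2 rows compare with 101 (DESeq2), 619 (no filter), 1 (5 CPM filter), 1 (limma-voom), 24 (just the groups compared) and 51 (without siP300 2 and siComb 2), and leaving out 1 library gave 1 to 77. The log2 difference of MERVL-int passed with no filter (4.48), with just the groups compared (4.51) and without siP300 2 and siComb 2 (4.49). The last of these fits left out libraries told apart by MERVL-int itself. Without 1 library the log2 difference of MERVL-int ran from 4.08 to 5.05. That of Kat6b kept its sign and stayed short of the threshold in all 17 settings (-0.61 to -0.45). Leaving out 1 library turned the sign of Kat6a (-0.037 to 0.064), Brpf1 (-0.25 to 0.020), Zscan4c (-0.15 to 0.86), Zscan4d (-0.22 to 1.14) and the mitochondrially encoded share (-0.274 to 0.0749 percentage points). The cause of these shifts was not tested.

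With the replicate block, 2 rows were called against siControl and 2 against siKat6a; same-numbered siKat6b and siControl libraries had correlations of deviations of 0.029, -0.082 and 0.0075, so the numbers do not pair them. Over 78 named genes and their alternatives, 1083 of 1226 values kept their direction and their side of the threshold. DESeq2 gave no adjusted p for MERVL-int. It called 1 gene higher in each list of meiosis and piRNA, integrated stress response, double-stranded RNA response, glycolysis and cell cycle. It also called 1 gene of a cytosolic ribosomal protein lower. In each of these lists 0 passed in the main fit. Of all 19182 rows, DESeq2 called 167 higher and 70 lower. At these depths, genes under about 1 CPM rest on a few counts.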
